A study of Mus musculus with 15 samples.

Results

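The genes described here encode laminin chains and the basement membrane proteoglycans perlecan and agrin in cells of the mouse heart. They were chosen by name: Lama2, Lama4 and Lama5 (alpha chains), Lamb2 and Lamb3 (beta chains), Lamc1 (a gamma chain), Hspg2 (perlecan) and Agrn (agrin). Earlier results of these data were known when they were chosen. All 8 of the 8 genes had a value, among 13513 genes that could be named in a table of 22206 probe sets. Each was measured by 1 probe set.

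Cells of 3 groups of C57BL/6 wild type mice aged 8 to 12 weeks were profiled on Affymetrix arrays, with 5 arrays in each group that the series calls biological replicates. EpiSC are epicardial stromal cells from hearts 5 days after myocardial infarction (MI), freed from the heart surface by mild shear during collagenase perfusion. aCF are activated cardiac fibroblasts from hearts 5 days after MI, taken from the digested ventricles by straining and a slow spin that pellets heart muscle cells. CF are cardiac fibroblasts from unstressed hearts, prepared from the ventricles in the same way but without shear. EpiSC and aCF differ in cell type and in the way they were isolated, and the effects of these cannot be told apart. EpiSC and CF differ in infarction as well as in cell type and isolation. aCF and CF differ in infarction and in the shear step, which CF lacked. In these comparisons too, the separate effects cannot be told apart. The sources used here name no sham-operated group and no cell sort, so the fractions are not pure populations by a marker.

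Values are log2 expression relative to the middle of the 15 arrays, since the median of every probe set was set to 0. A value of 0 is therefore the middle array for that gene, not an absence of RNA, and levels cannot be compared between genes. Gene names rest on an inference that no header states. Each identifier was paired with the values 6900 rows further down, with 3 rows more on chromosomes 10 and 11. Lama2 and Lama4 lie on chromosome 10, so their values also depend on the extra offset of 3 rows. As deviations from group means, Lama2 correlated with the mean of 16 other basement membrane genes at 0.616 with the extra offset and at 0.241 without it. The same values for Lama4 were 0.375 and -0.43. These correlations are over 15 arrays and carry no test. Other genes of chromosomes 10 and 11 named below depend on the extra offset in the same way. They are Ntn4, Itga7, Itgb4 and Hs3st3a1, the markers Ptprb, Higd1b, Vtn, Col1a1, Myl7, S100b and Erbb3, and Syne1.

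Arrays grouped by label, since each array correlated best with another of its own group, but some stood apart within a group. On the first principal component of the paired rows, aCF4 (6.35) and aCF5 (4.48) lay apart from the other aCF arrays (-4.51 to -1.64). EpiSC5 (25.3) lay apart from the other EpiSC arrays (34.3 to 38.5). Results that rest on these arrays are given with and without them below. Mesothelial marker genes, which mark the epicardial surface layer, averaged between 1.34 and 2.02 per array over 9 measured genes in EpiSC, between -0.82 and 0.25 in aCF, and between -1.02 and -0.29 in CF. Of these, Wt1, Bnc1, Dmkn and Rspo1 were higher in EpiSC than in aCF past a Bonferroni threshold of 0.05, and the same genes and Lrrn4 were so against CF. Among 10 fits that left out 1 array, the calls against aCF held in 5 for Wt1, 2 for Dmkn and 1 each for Bnc1 and Rspo1. Aldh1a2 (means 0.04 in EpiSC, 0.05 in aCF and -0.14 in CF) and Tbx18 (0.10, -0.002 and -0.22) of the same list differed little. EpiSC arrays thus carried most, not all, of the measured markers of their label.

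Laminins are trimers of an alpha, a beta and a gamma chain that polymerise into the sheet on which a basement membrane is built. The alpha chain carries the binding sites for integrins and dystroglycan: alpha 2 chains are typical of muscle and nerve, alpha 4 of vessels and mesenchymal cells, and alpha 5 of epithelia and mature vessels. Perlecan and agrin are large heparan sulphate proteoglycans that join this sheet to collagen IV and to cell surface receptors, and agrin is also known as the organiser of the neuromuscular junction and as a signal for heart muscle cell growth in neonatal mouse hearts.

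RefSeq promoter windows (GRCm38.p6, 300 bases around the annotated start) were held for 6 of the 8 genes, and those of Lama4 and Lamc1 were not used here. The 4 windows below are shown because these genes carried the contrasts between groups: Lama2 and Hspg2 were lower in EpiSC than in CF, Lama5 was highest in EpiSC, and Agrn was highest in aCF. Each is written 5′ to 3′ on the strand of the gene, and capitals mark the GC box GGGCGG on either strand.
Lama2 (chr10:27616893-27617192, minus strand): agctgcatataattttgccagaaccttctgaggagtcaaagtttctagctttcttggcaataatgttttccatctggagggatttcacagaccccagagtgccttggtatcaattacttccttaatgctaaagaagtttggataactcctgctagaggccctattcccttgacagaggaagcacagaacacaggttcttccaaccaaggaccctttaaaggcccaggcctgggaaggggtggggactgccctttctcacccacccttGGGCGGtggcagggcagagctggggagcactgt
Hspg2 (chr4:137468553-137468852, plus strand): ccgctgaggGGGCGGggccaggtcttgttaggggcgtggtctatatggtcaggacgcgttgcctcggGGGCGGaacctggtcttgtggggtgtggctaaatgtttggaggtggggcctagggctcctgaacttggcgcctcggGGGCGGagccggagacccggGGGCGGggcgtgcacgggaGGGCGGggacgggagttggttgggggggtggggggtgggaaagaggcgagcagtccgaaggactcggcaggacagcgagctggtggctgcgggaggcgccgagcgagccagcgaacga
Lama5 (chr2:180225810-180226109, minus strand): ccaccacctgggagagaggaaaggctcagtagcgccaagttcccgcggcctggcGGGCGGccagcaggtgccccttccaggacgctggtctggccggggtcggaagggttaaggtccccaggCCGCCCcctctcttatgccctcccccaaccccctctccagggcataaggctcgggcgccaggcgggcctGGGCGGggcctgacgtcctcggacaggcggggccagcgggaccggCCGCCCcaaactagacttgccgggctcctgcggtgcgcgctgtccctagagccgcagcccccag
Agrn (chr4:156197439-156197738, minus strand): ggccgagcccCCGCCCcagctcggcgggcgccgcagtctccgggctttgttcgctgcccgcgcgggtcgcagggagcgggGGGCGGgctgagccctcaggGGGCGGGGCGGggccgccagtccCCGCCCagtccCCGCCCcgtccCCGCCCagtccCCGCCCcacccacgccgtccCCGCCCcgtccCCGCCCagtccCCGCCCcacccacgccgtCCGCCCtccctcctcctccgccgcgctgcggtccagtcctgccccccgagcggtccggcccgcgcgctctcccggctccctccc
The GC box stood 1 time in the Lama2 window, 5 times in the Hspg2 window, 4 times in the Lama5 window and 12 times in the Agrn window. It was absent from the Lamb2 window and from both Lamb3 windows. GC content was 50.3% for Lama2, 70.3% for Hspg2, 72.7% for Lama5 and 83.3% for Agrn, against 44% for Lamb2. GGGCGG occurred on either strand in 35.7% of 32851 promoter windows of 300 bases. TATAAA (13.6% of all windows), CCAAT (37.4%) and TGANTCA (7.81%) were searched on both strands and found in none of the windows of these genes. GCGGGGGCG (2.91%), the letters bound by WT1 and EGR factors, was found only in a second Agrn window, where it overlaps a GC box. Promoter letters did not sort the genes by direction, since the GC box was present in genes lower in EpiSC and in one that was higher. A match is a run of letters, not a site shown to be bound.

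In EpiSC, set against CF, Lama2, Lama4, Lamc1 and Hspg2 fell, by 6.19-fold for Lama2 and by 1.64-fold to 2.24-fold for the other 3. In aCF, set against CF, Lama2 fell 1.99-fold. No gene of the 8 passed the Bonferroni threshold between EpiSC and aCF, although Lama2 was 3.11-fold lower in EpiSC. Lama5 was higher in every EpiSC array than in any aCF or CF array, and Agrn was higher in every aCF array than in any CF array, and neither passed that threshold. All p-values are from limma's moderated test, two-sided, and "passed" or a verb such as "fell" refers to Bonferroni adjustment over all 22206 probe sets at 0.05, the correction the series design names. Benjamini-Hochberg (BH) values, a more lenient correction over the same probe sets, are given beside them. A gene said to fall or rise between groups was lower or higher in the group named first.

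**Figure D1:**
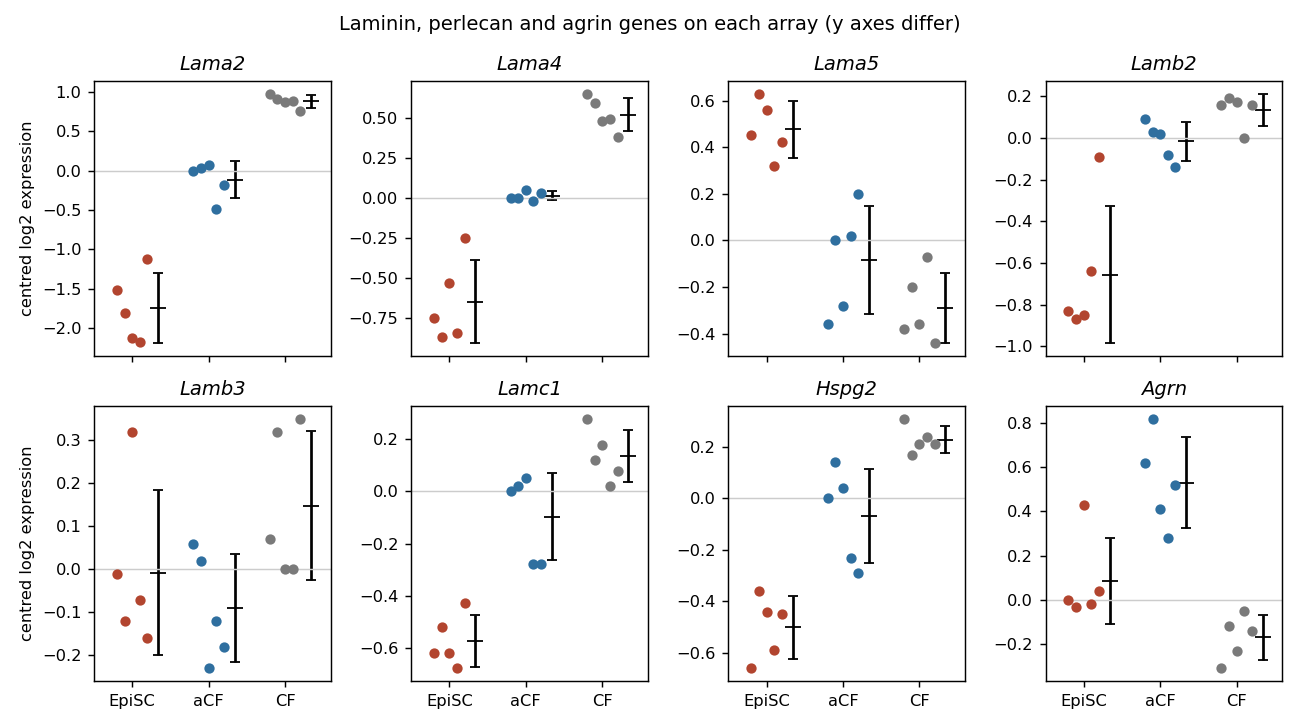
Centred log2 expression of the 8 genes on each array (points), with EpiSC left, aCF in the middle and CF right, and the mean ± SD of each group beside its points (n = 5 arrays). Each panel has its own y axis. Lama2 forms 3 separate steps with EpiSC lowest (-2.18 to -1.12), Lama5 is highest in EpiSC (0.32 to 0.63), and Agrn is highest in aCF (mean 0.53).

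Lama2 encodes the alpha 2 chain, the chain of the main laminin of heart and skeletal muscle. Its centred log2 expression was -1.51, -1.81, -2.13, -2.18 and -1.12 in EpiSC1 to EpiSC5. It was 0.00, 0.03, 0.07, -0.49 and -0.18 in aCF1 to aCF5, and 0.98, 0.91, 0.87, 0.88 and 0.76 in CF1 to CF5. The groups did not overlap in any pair, with every EpiSC array below every aCF array and every aCF array below every CF array. Group means were -1.75 ± 0.44 in EpiSC, -0.11 ± 0.23 in aCF and 0.88 ± 0.08 in CF (SD, n = 5 each). The log2 difference of EpiSC against CF was -2.63 ± 0.18 (SE; Bonferroni-adjusted p = 0.000836), and it passed in each of 10 fits that left out 1 array (p between 7.75e-05 and 0.00751). Of all results on the 8 genes, this was the one that held through every omission of an array.

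The aCF difference from CF for Lama2 was -0.99 ± 0.10 (Bonferroni-adjusted p = 0.0382, BH-adjusted p = 0.000124). It stood near the threshold: it passed without aCF4 (adjusted p = 0.00666) and without both aCF4 and aCF5 (-0.85, adjusted p = 0.0169), and missed it without any 1 of the other 9 arrays (p up to 0.224). It also missed it after a further quantile normalization (adjusted p = 0.273), with trended and robust moderation (adjusted p = 0.811) and with all 15 arrays in one fit (adjusted p = 1). The separation of the groups array by array was read from the deposited values only. The EpiSC difference from aCF was -1.64 ± 0.20, with a 95% interval of -2.09 to -1.19 (Bonferroni-adjusted p = 0.21, BH-adjusted p = 0.000812). That comparison passed without EpiSC5 (adjusted p = 0.0308) and with all 15 arrays in one fit (adjusted p = 0.00338).

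Lama4 encodes the alpha 4 chain, found in the laminins of vessels and mesenchymal cells. Centred log2 expression was -0.75, -0.87, -0.53, -0.84 and -0.25 in EpiSC1 to EpiSC5. It was 0.00, 0.00, 0.05, -0.02 and 0.03 in aCF1 to aCF5, and 0.65, 0.59, 0.48, 0.49 and 0.38 in CF1 to CF5. Lama4 followed the same order of groups as Lama2 with smaller steps, and again no pair of groups overlapped. EpiSC fell below CF by 1.17 ± 0.12 on the log2 scale (Bonferroni-adjusted p = 0.0322). Of the 10 fits that left out 1 array, only the one without EpiSC5 kept this call (adjusted p = 0.00255), and the others gave p up to 0.198. The aCF difference from CF was -0.51 ± 0.06 (Bonferroni-adjusted p = 0.114, BH-adjusted p = 0.000263), and that of EpiSC from aCF was -0.66 ± 0.11 (Bonferroni-adjusted p = 1, BH-adjusted p = 0.00501).

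Lama5 encodes the alpha 5 chain, a chain of epithelial and vascular basement membranes. Its values were 0.45, 0.63, 0.56, 0.32 and 0.42 in EpiSC1 to EpiSC5. They were -0.36, 0.00, -0.28, 0.02 and 0.20 in aCF1 to aCF5, and -0.38, -0.20, -0.36, -0.07 and -0.44 in CF1 to CF5. The lowest EpiSC array lay above the highest array of either fibroblast group, whereas aCF and CF overlapped. EpiSC differed from CF by 0.77 ± 0.09 on the log2 scale, 1.7-fold higher, which missed the threshold (Bonferroni-adjusted p = 0.1, BH-adjusted p = 0.000124). After a further quantile normalization the same difference was 0.83 and passed (adjusted p = 0.0454). EpiSC differed from aCF by 0.56 ± 0.11, 1.47-fold higher, with a 95% interval of 0.31 to 0.81 (Bonferroni-adjusted p = 1, BH-adjusted p = 0.0114). For aCF against CF the difference was 0.21 ± 0.12, with an interval of -0.05 to 0.46 (BH-adjusted p = 0.259).

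Among the alpha chains, Lama5 thus stood in the opposite order to Lama2 and Lama4. Over the 15 arrays, Pearson's r was -0.889 between Lama5 and Lama2 and -0.85 between Lama5 and Lama4, against 0.967 between Lama2 and Lama4. These coefficients are descriptions, since the arrays share the 3 group means. No single one of these genes gives the total amount of alpha chain, because centred values hold no level.

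Lamb2 encodes the beta 2 chain, present in the laminins of vessels, kidney filter and neuromuscular junction. Centred log2 expression was -0.83, -0.87, -0.85, -0.64 and -0.09 in EpiSC1 to EpiSC5. It was 0.09, 0.03, 0.02, -0.08 and -0.14 in aCF1 to aCF5, and 0.16, 0.19, 0.17, 0.00 and 0.16 in CF1 to CF5. EpiSC1 to EpiSC4 lay between -0.87 and -0.64, and EpiSC5 lay within the range of aCF. The EpiSC difference from CF was -0.79 ± 0.14 (Bonferroni-adjusted p = 1, BH-adjusted p = 0.00182), and without EpiSC5 it passed (adjusted p = 0.00552). EpiSC differed from aCF by -0.64 ± 0.14 (Bonferroni-adjusted p = 1, BH-adjusted p = 0.0191). aCF and CF overlapped, with a difference of -0.15 ± 0.06 (BH-adjusted p = 0.128).

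Lamb3 encodes the beta 3 chain of the laminin that anchors skin and other epithelia. Its values ran from -0.16 to 0.32 in EpiSC, from -0.23 to 0.06 in aCF and from 0.00 to 0.35 in CF. The 3 groups overlapped throughout. Differences were 0.08 ± 0.10 for EpiSC against aCF, with an interval of -0.14 to 0.31, and -0.16 ± 0.11 for EpiSC against CF, with an interval of -0.40 to 0.09. The aCF difference from CF was -0.24 ± 0.09 (Bonferroni-adjusted p = 1, BH-adjusted p = 0.109). Lamb3 was the one gene of the 8 that passed neither correction in any comparison, and its intervals reached from -0.45 to 0.31 over the comparisons.

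Lamc1 encodes the gamma 1 chain, shared by most laminins. Centred log2 expression was -0.62, -0.52, -0.62, -0.68 and -0.43 in EpiSC1 to EpiSC5. It was 0.00, 0.02, 0.05, -0.28 and -0.28 in aCF1 to aCF5, and 0.28, 0.12, 0.18, 0.02 and 0.08 in CF1 to CF5. Every EpiSC array lay below every fibroblast array, while aCF2 and aCF3 reached into the CF range and the other aCF arrays lay below it. EpiSC fell below CF by 0.71 ± 0.07 on the log2 scale, or 1.64-fold (Bonferroni-adjusted p = 0.0248). Among the fits that left out 1 array, this call held only without EpiSC5 (adjusted p = 0.0322), with p up to 0.163 otherwise, and it was missed with trended and robust moderation (adjusted p = 0.459). The EpiSC difference from aCF was -0.48 ± 0.09 (Bonferroni-adjusted p = 1, BH-adjusted p = 0.00812), and that of aCF from CF was -0.23 ± 0.09 (BH-adjusted p = 0.091).

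Hspg2 encodes perlecan, the proteoglycan that links laminin to collagen IV and holds growth factors on its heparan sulphate chains. Its values were -0.66, -0.36, -0.44, -0.59 and -0.45 in EpiSC1 to EpiSC5. They were 0.00, 0.14, 0.04, -0.23 and -0.29 in aCF1 to aCF5, and 0.31, 0.17, 0.21, 0.24 and 0.21 in CF1 to CF5. No pair of groups overlapped, and the 5 CF arrays lay close together, between 0.17 and 0.31. EpiSC fell below CF by 0.73 ± 0.07 on the log2 scale, or 1.66-fold (Bonferroni-adjusted p = 0.0142). This call held without EpiSC1 (adjusted p = 0.0328) or without EpiSC2 (adjusted p = 0.0192), and was missed without any other single array (p up to 0.0934) and with trended and robust moderation (adjusted p = 0.0767). The difference was -0.43 ± 0.10 for EpiSC against aCF (BH-adjusted p = 0.021) and -0.30 ± 0.09 for aCF against CF (BH-adjusted p = 0.0362), with a Bonferroni p of 1 in both.

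Agrn encodes agrin, which acts through dystroglycan and through the receptor pair LRP4 and MuSK. Centred log2 expression was 0.00, -0.03, 0.43, -0.02 and 0.04 in EpiSC1 to EpiSC5. It was 0.62, 0.82, 0.41, 0.28 and 0.52 in aCF1 to aCF5, and -0.31, -0.12, -0.23, -0.05 and -0.14 in CF1 to CF5. Agrn alone among the 8 genes had its highest mean in aCF, 0.53 ± 0.21, against 0.08 ± 0.20 in EpiSC and -0.17 ± 0.10 in CF (SD, n = 5 each). All aCF arrays lay above all CF arrays, with a difference of 0.70 ± 0.10 or 1.62-fold (95% interval 0.48 to 0.92, Bonferroni-adjusted p = 0.587, BH-adjusted p = 0.000833). EpiSC differed from aCF by -0.45 ± 0.12 (BH-adjusted p = 0.0446), with EpiSC3 inside the aCF range. EpiSC differed from CF by 0.25 ± 0.10 (BH-adjusted p = 0.0688), and all EpiSC arrays lay above all CF arrays.

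**Figure D2:**
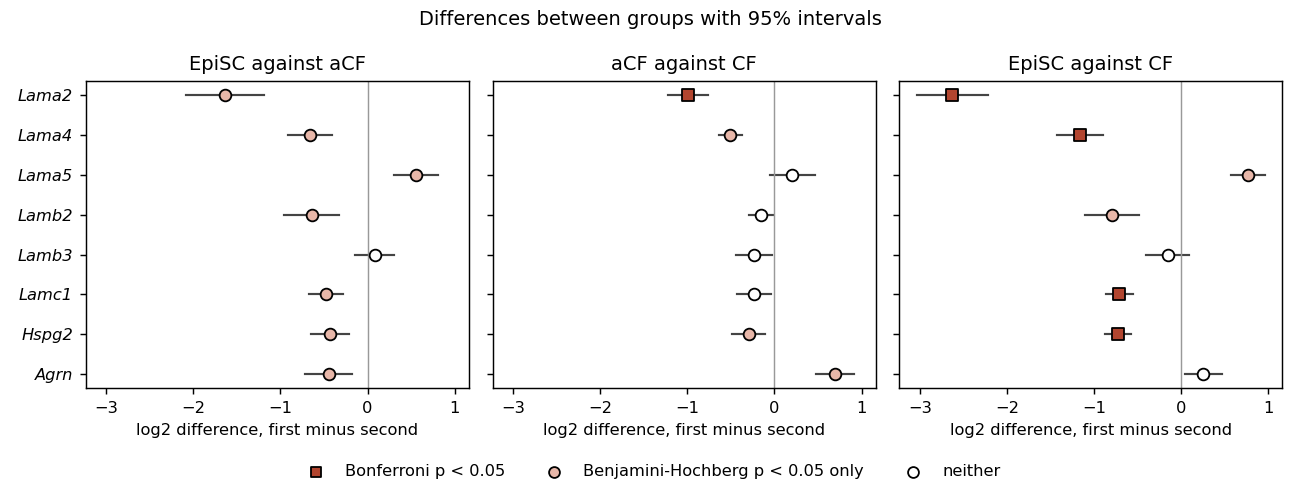
Log2 differences of the 8 genes in 3 comparisons (first group minus second), with 95% intervals from limma on 5 arrays a group. Filled squares passed Bonferroni adjustment over 22206 probe sets, tinted circles passed only Benjamini-Hochberg, and open circles neither. Lama2 has the largest difference in all 3 panels, and Lama5 lies right of 0 in each.

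Counted over the genes, EpiSC against aCF had 0 of 8 past Bonferroni by limma, where 0.666% of all probe sets passed (0.401% higher and 0.266% lower). Without adjustment, 7 of the 8 had p under 0.05, but the share of all probe sets at that level was not counted. The BH counts were 1 higher and 6 lower, against 4.61% higher and 5.01% lower among all probe sets. The arrays of EpiSC and aCF did not overlap for 1 higher and 4 lower genes, against 5.18% and 4.73% of all probe sets. Their median log2 difference was -0.46, against 0.01 over all probe sets.

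For aCF against CF, 1 of 8 genes passed Bonferroni, Lama2, and was lower, while 1.53% of all probe sets passed (1.21% higher and 0.32% lower). With BH, 1 was higher and 3 were lower (8.74% and 9.38% of all probe sets). Arrays did not overlap for 1 higher and 3 lower genes, against 7.88% and 6.84%. The median difference was -0.24, against -0.02 over all probe sets.

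For EpiSC against CF, a comparison that the series design does not name, 4 of 8 genes passed Bonferroni and all 4 were lower, while 2.91% of all probe sets passed (1.97% higher and 0.941% lower). Leaving out 1 array gave 1 to 4 genes. With BH, 1 was higher and 5 were lower (14.5% and 17.7% of all probe sets). Arrays did not overlap for 2 higher and 5 lower genes, against 11.6% and 11.8%. The median difference was -0.72, against -0.01. The 3 comparisons share groups, so their counts are not independent of each other.

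Of the laminin chains outside the 8 genes, Lamc3, a gamma 3 chain gene, was the 1 of 5 that had a value. It averaged 0.36 in EpiSC, -0.61 in aCF and 0.06 in CF. Its differences were 0.98 ± 0.20 for EpiSC against aCF (BH-adjusted p = 0.0114) and -0.67 ± 0.11 for aCF against CF (BH-adjusted p = 0.00251), neither past Bonferroni. Lamc3 was thus lowest in aCF, an order that none of the 6 laminin genes described above showed apart from Lamb3, whose groups overlapped.

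The collagen and linker genes that build the basement membrane together with laminin had 12 of 17 measured. Between EpiSC and aCF 3 of 12 fell (Col4a1, Col4a2 and Col15a1) and 0 rose, where 0.266% of all probe sets fell and 0.401% rose. Col4a1 and Col4a2 encode the chains of the common collagen IV network, and Col15a1 encodes a collagen that bridges the membrane to the tissue around it. Col4a2 averaged -0.89 in EpiSC and 0.42 in aCF, a difference of -1.30 ± 0.09 (Bonferroni-adjusted p = 0.0006). Col15a1 differed by -1.36 ± 0.11 (adjusted p = 0.00486) and Col4a1 by -1.03 ± 0.10 (adjusted p = 0.0165). The Col4a1 call was kept only without EpiSC4 or without EpiSC5 among the fits that left out 1 array (p between 0.0198 and 0.107 over the 10 fits), and it was missed after quantile normalization (adjusted p = 0.0641). The median over the 12 genes was -0.19, against 0.01 over all probe sets.

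Between EpiSC and CF, 5 of these 12 genes fell and 0 rose, where 0.941% of all probe sets fell and 1.97% rose. The median over the 12 genes was -0.585, against -0.008 over all probe sets. Col4a3, a chain of the specialised collagen IV of kidney and lung, averaged -0.89 in EpiSC and 1.60 in CF (-2.49 ± 0.17, Bonferroni-adjusted p = 0.000779). Its partner Col4a4 differed by -0.98 ± 0.08 (adjusted p = 0.00296) and Col15a1 by -1.65 ± 0.11 (adjusted p = 0.000638). Col4a1 (-1.08, adjusted p = 0.0498) and Col4a2 (-0.88, adjusted p = 0.0428) passed narrowly. Col4a1 missed the threshold in all 10 fits that left out 1 array (p between 0.0776 and 0.291), and Col4a2 kept it only without EpiSC4 (adjusted p = 0.0246).

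Between aCF and CF, 1 of the 12 fell and 0 rose, where 0.32% of all probe sets fell and 1.21% rose. The gene that fell was Ntn4, which encodes netrin 4, a protein that binds laminin gamma chains and loosens the laminin network. It averaged 0.01 in aCF and 0.93 in CF (-0.92 ± 0.08, Bonferroni-adjusted p = 0.00962). The call held without aCF1 or without aCF5 and was missed without any other single array (p between 0.000852 and 0.0665 over the 10 fits). Ntn4 also lies on chromosome 10 and depends on the extra row offset. Col4a3 differed by -1.93 ± 0.30 in this comparison and missed Bonferroni (BH-adjusted p = 0.00135). Col4a1 differed by -0.04 ± 0.10 between aCF and CF (BH-adjusted p = 0.804), the comparison in which Lama2 fell.

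**Figure D3:**
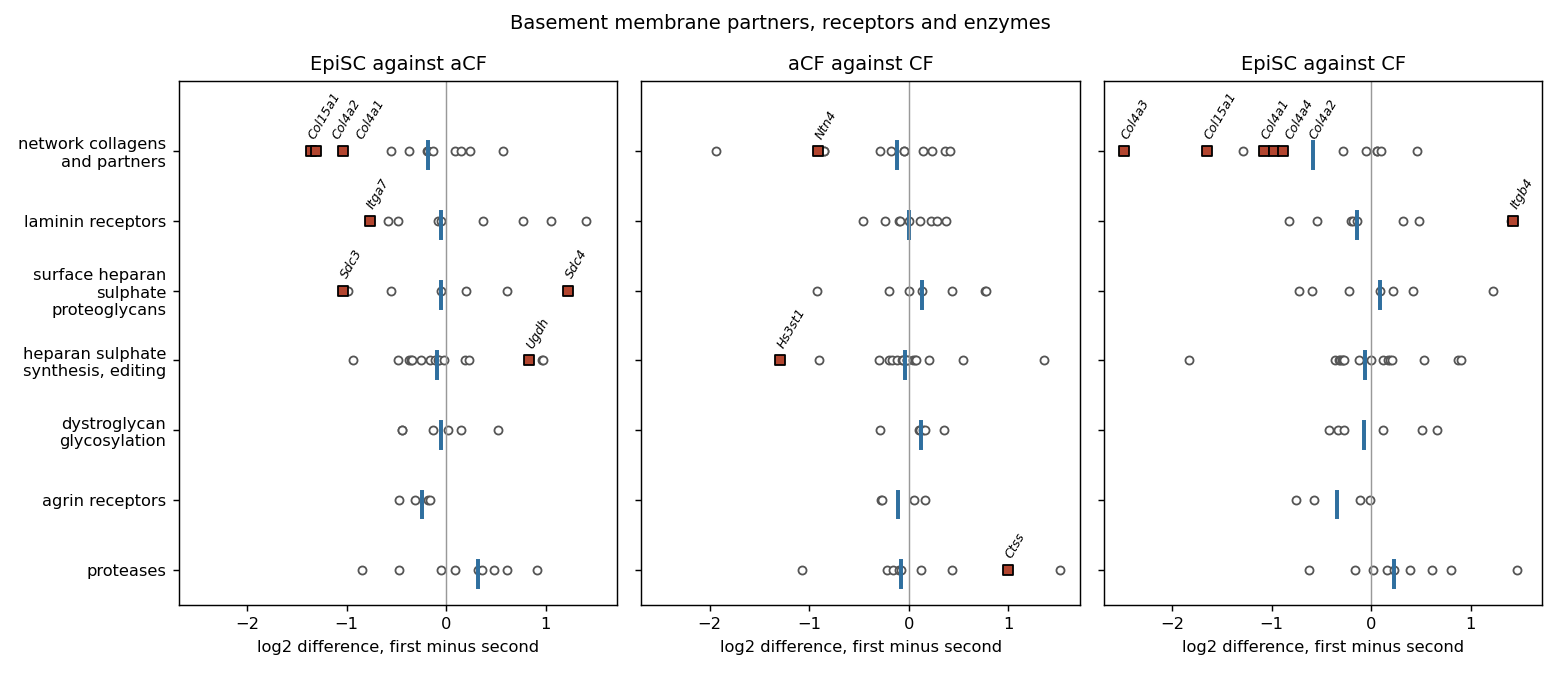
Log2 differences of genes that build, bind, modify or cut the basement membrane, in 3 comparisons (first group minus second). Each circle is a gene, filled squares with names passed Bonferroni, and blue bars are list medians. The collagen list holds 3, 1 and 5 such genes from left to right, all below 0.

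Of the laminin receptors, 9 of 12 had a value. Itga7, the integrin alpha 7 chain that binds laminin in muscle and mural cells, averaged -0.53 in EpiSC and 0.24 in aCF and fell by 0.77 on the log2 scale (SE 0.08, Bonferroni-adjusted p = 0.027). The call was missed in all 10 fits that left out 1 array (p between 0.0735 and 0.159), and Itga7 depends on the extra row offset of chromosome 10. Itgb4, the integrin beta 4 chain of epithelial hemidesmosomes, averaged 1.11 in EpiSC and -0.32 in CF and rose by 1.43 ± 0.15 (Bonferroni-adjusted p = 0.0309), a call kept only without EpiSC4 (adjusted p = 0.0224, and up to 0.192 otherwise). Itgb4 depends on the extra row offset of chromosome 11. Itga6, which pairs with Itgb4, ran from 0.65 to 1.54 in EpiSC and from -0.87 to 0.11 in aCF, with a difference of 1.41 ± 0.23 that missed Bonferroni (BH-adjusted p = 0.00368). Dag1, which encodes dystroglycan, the receptor of alpha 2 chains and agrin, had differences of -0.09 for EpiSC against aCF, -0.10 for aCF against CF and -0.19 for EpiSC against CF, none past Bonferroni. Between aCF and CF 0 of the 9 receptors passed by limma's Bonferroni value, with differences from -0.45 (Cd151) to 0.38 (Itgb4). With BH, 1 was higher and 1 was lower, against 8.74% and 9.38% of all probe sets. For EpiSC against aCF, BH gave 3 higher and 3 lower, against 4.61% and 5.01% of all probe sets. For EpiSC against CF it gave 4 higher and 4 lower, against 14.5% and 17.7%. Receptor medians were -0.06 for EpiSC against aCF, 0.00 for aCF against CF and -0.14 for EpiSC against CF.

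The agrin receptor genes Lrp4, Musk, Dok7 and Rapsn were all measured, and 0 of 4 passed Bonferroni in any comparison. Lrp4, the receptor that agrin binds, averaged -0.57 in EpiSC, -0.09 in aCF and 0.19 in CF, and its EpiSC difference from CF (-0.76 ± 0.15) passed BH (adjusted p = 0.00388). Lrp4 thus did not share the aCF peak of Agrn. Genes that glycosylate dystroglycan so that it can bind laminin had 6 of 15 measured and 0 past Bonferroni, with differences between -0.45 (Pomk, EpiSC against aCF) and 0.66 (Large2, EpiSC against CF). By BH, 1 of the 6 passed for EpiSC against aCF, 2 for aCF against CF and 4 for EpiSC against CF. The shares of all probe sets, higher and lower, were 4.61% and 5.01%, 8.74% and 9.38%, and 14.5% and 17.7% in turn.

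Genes that make and edit heparan sulphate, the sugar chain of perlecan and agrin, had 16 of 26 measured. Ugdh, the enzyme that makes the UDP-glucuronate used for these chains, averaged 0.45 in EpiSC and -0.39 in aCF and rose by 0.84 ± 0.07 (Bonferroni-adjusted p = 0.0057). Hs3st1, a 3-O-sulfotransferase, averaged -0.93 in aCF and 0.37 in CF and fell by 1.30 on the log2 scale (SE 0.13, Bonferroni-adjusted p = 0.0242). That call was kept only without aCF1 or without CF5 among the single omissions (p between 0.0187 and 0.142). Between EpiSC and CF 0 of 16 passed Bonferroni, and BH gave 1 higher and 4 lower, among them Hs3st3a1 at -1.83 ± 0.22. Among all probe sets, BH gave 14.5% higher and 17.7% lower in this comparison.

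Of the heparan sulphate proteoglycans of the cell surface, 7 of 11 had a value, and between EpiSC and aCF they moved in both directions. Sdc4 (syndecan 4) averaged 1.17 in EpiSC and -0.05 in aCF and rose by 1.22 ± 0.13 (Bonferroni-adjusted p = 0.0459), a call kept only without EpiSC5 (adjusted p = 0.00791, and up to 0.26 otherwise). Sdc3 (syndecan 3) averaged -0.53 in EpiSC and 0.50 in aCF and fell by 1.03 on the log2 scale (SE 0.09, adjusted p = 0.00708). None of the 7 passed Bonferroni for aCF against CF, where Tgfbr3 had -0.92 (adjusted p = 0.0702), or for EpiSC against CF, where Sdc4 had 1.22 (adjusted p = 0.068). By BH, 4 of the 7 passed in the first of these comparisons and 3 in the second. Among all probe sets, 8.74% were higher and 9.38% lower by BH in the first, and 14.5% and 17.7% in the second.

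Of 18 proteases that cut basement membrane proteins, 9 were measured. Ctss, which encodes cathepsin S, averaged 0.81 in aCF and -0.20 in CF and rose by 1.00 ± 0.08 (Bonferroni-adjusted p = 0.00213). No protease passed for EpiSC against aCF or EpiSC against CF by Bonferroni. BH gave 3 higher and 2 lower for the first, against 4.61% and 5.01% of all probe sets. For the second it gave 4 higher and 1 lower, against 14.5% and 17.7%. Cathepsin S is abundant in macrophages.

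Of the genes in these lists, Col4a2, Ugdh and Sdc3 between EpiSC and aCF, and Col4a3 and Col15a1 between EpiSC and CF, passed under each of 5 other settings (quantile normalization, one fit of all arrays, trended and robust moderation, array weights, paired rows only) and in each fit that left out 1 array. The fit with the replicate number as a block is not among these 5. It cut the probe sets that passed from 148 to 41 and from 647 to 166 in these 2 comparisons. Col4a2 also passed without aCF4 and aCF5. Without those 2 arrays, the EpiSC differences from aCF missed the threshold for Col15a1 (adjusted p = 0.123), Ugdh (adjusted p = 0.197) and Sdc3 (adjusted p = 0.219). With trended and robust moderation, it was missed by Ctss between aCF and CF (adjusted p = 0.126), by Col4a4 between EpiSC and CF (adjusted p = 0.164) and by Col15a1 between EpiSC and aCF (adjusted p = 1).

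Marker lists of other cell types also differed between the groups. In bulk fractions, fewer cells of a type and less RNA per cell cannot be told apart, and centred values cannot show whether a marker is absent. Endothelial markers, whose cells make laminins with alpha 4 and alpha 5 chains, averaged between -0.71 and -0.54 per array in EpiSC over 13 of 16 measured genes, between -0.17 and 0.33 in aCF and between 0.16 and 0.51 in CF. Of these, Ptprb fell between EpiSC and aCF and Cdh5 fell between EpiSC and CF. Ptprb was highest in aCF (mean 1.27, against -1.82 in EpiSC and 0.13 in CF), unlike the list mean. Differences lay below 0 for 12 of the 13 genes in both comparisons. List medians were -0.34 and -0.77, against 0.01 and -0.01 over all probe sets. By BH, 0 were higher and 5 lower in the first, against 4.61% and 5.01% of all probe sets. In the second, 1 was higher and 9 were lower, against 14.5% and 17.7%. Esam was the 1 gene with differences above 0, averaging 0.52 in EpiSC, 0.07 in aCF and -0.22 in CF. Heart muscle markers (13 of 18) averaged between -0.59 and -0.31 in EpiSC, between -0.60 and 0.30 in aCF and between 0.17 and 0.43 in CF. Tnnt2, Myl2 and Myl3 fell between EpiSC and CF, where 10 of the 13 differences lay below 0 and 3 above. The list median was -0.67 there, against -0.01 over all probe sets. By BH, 1 was higher and 8 were lower, against 14.5% and 17.7% of all probe sets. Myl7 of this list went the other way, averaging 1.69 in EpiSC, -0.70 in aCF and -0.17 in CF. By their medians over arrays, both lists stood in the same order of groups as Lama2, Lama4, Lamc1 and Hspg2, and their part in these results was not tested.

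Mural markers, of pericytes and smooth muscle (12 of 16), averaged between -0.94 and -0.56 in EpiSC, between 0.28 and 0.58 in aCF and between -0.63 and -0.03 in CF. This list was split: between EpiSC and CF, Des (2.69), Tagln (1.79) and Cnn1 (3.06), genes of contractile cells, rose on the log2 scale while Vtn (-2.25) and Heyl (-2.06) fell. Between EpiSC and aCF, Des rose and Rgs5, Higd1b and Heyl fell, and between aCF and CF, Tagln and Cnn1 rose. Macrophage markers (10 of 14) averaged between -0.28 and 0.01 in EpiSC, between 0.11 and 0.40 in aCF and between -0.17 and 0.03 in CF. No macrophage marker passed Bonferroni in any comparison. For aCF against CF, 9 of the 10 differences lay above 0 and 1, that of Cd163, lay below. Cd163 was lowest in aCF (mean -0.14, against 0.11 in EpiSC and -0.04 in CF). The mural and macrophage list means were highest in aCF, as Agrn and Ctss were, and so was the fibroblast list mean given next. The part of these lists in those results was not tested. Fibroblast markers (12 of 14) averaged between -0.38 and -0.02 in EpiSC, between 0.07 and 0.16 in aCF and between -0.12 and -0.05 in CF. This list was split too: between aCF and CF, Col1a1, Col1a2, Col3a1 and Postn, genes of scar matrix, rose while Gsn and Ddr2 fell, and between EpiSC and CF, Col1a1, Col1a2 and Postn rose. Schwann cell markers (4 of 9), the glia of nerves that make alpha 2 and alpha 4 laminins, averaged between -0.85 and -0.27 in EpiSC, between -0.10 and 0.03 in aCF and between 0.13 and 0.41 in CF.

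Within aCF, the arrays aCF4 and aCF5 had heart muscle means of -0.60 and -0.51, against 0.04 to 0.30 in aCF1 to aCF3, and endothelial means of -0.17 and -0.03, against 0.11 to 0.33. The same 2 arrays had the lowest aCF values of Lama2, Lamb2, Lamc1 and Hspg2 and the highest of Lama5. Without them, Lama2 kept its call between aCF and CF, as given above. EpiSC5, the EpiSC array with the lowest mesothelial mean (1.34), had the least negative Lama2, Lama4, Lamb2 and Lamc1 values of its group.

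**Figure D4:**
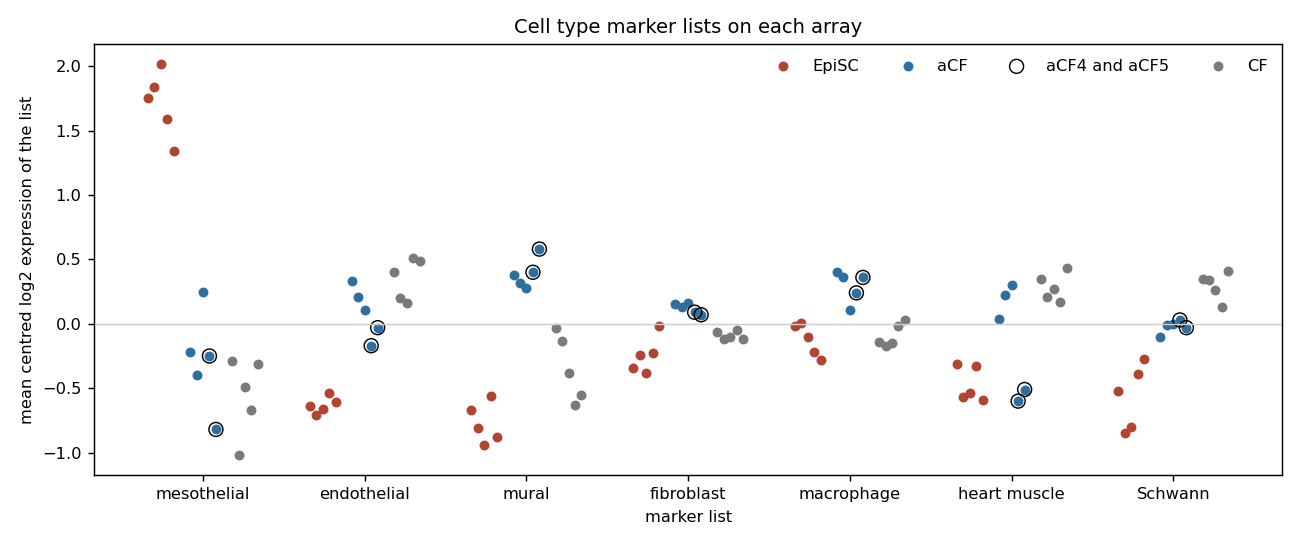
Mean centred log2 expression of each cell type marker list on each array, with EpiSC left, aCF in the middle and CF right of each list name. Rings mark aCF4 and aCF5, whose heart muscle means (-0.60 and -0.51) lie with the EpiSC arrays rather than with the other aCF arrays.

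The genes most like each member were sought by Pearson's r over the 15 arrays among all other named genes. Lamc1 and Hspg2 were each among the 3 genes most like the other (r = 0.97), and they were the only pair of the 8 for which this held. Lama2 was most like Entpd2 (0.992), Ski (0.986) and Negr1 (0.983), and Lama4 was most like Syne1 (0.981), Sgce (0.977) and Tns1 (0.973). For Lama5 these were Fhl3 (0.969), Edf1 (0.951) and G3bp2 (0.951), and for Lamb2 they were Golm2 (0.973), Fmo1 (0.971) and Gprasp2 (0.967). The other genes closest to Lamc1 were Fxyd1 (0.973) and Arfgef1 (0.971), and those closest to Hspg2 were Arhgap32 and Rbl2 (0.974 each). Agrn was most like Neo1 (0.912), Defb8 (0.903) and Zfp185 (0.902), and Lamb3 reached 0.83 at most (Nat8l). These coefficients follow the 3 group means that all arrays of the study share, so they are high for many genes and carry no p-value.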

How the data were processed

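RNA was measured on 15 Affymetrix arrays, 5 per group, from 1 ng of amplified, biotin-labelled RNA. Per the series design text, the authors worked in GeneSpring GX 12.5: quantile normalization of the probes, summary by ExonRMA16, then a shift of each probe set to its median of all samples. The deposited values are therefore read as log2 expression, with base 2 inferred from that method. No signal over background remains, so the number of arrays limits the precision, and the raw-signal filter that the design text names (20th percentile) could not be applied. Biological replicates are stated without naming animals, so p-values measure the spread between these samples.

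Identifiers and values are displaced in the table. Pairing by 6900 rows, and 3 more on chromosomes 10 and 11, gave 15303 rows an identifier, 13538 of them named from the platform annotation, and left chromosomes 12 to 19 and part of 11 without values. Over the 8 genes, the mean correlation of deviations from group means was 0.154 after pairing and -0.00876 as deposited.

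For each pair of groups, lmFit and eBayes of limma 3.58.1 (R 4.3.3) were run over all 22206 rows, with Bonferroni adjustment at 0.05, on 10 arrays per comparison. The code was tested on simulated data. The members and gene lists were chosen with earlier results of these data known. The text names all 8 genes, every list gene past Bonferroni, and, by the same rule, list extremes where fewer than 2 passed. Extremes of the marker lists and some of the other lists are left out. Alternatives were BH adjustment, further quantile normalization, one fit of all arrays, trended and robust eBayes, array weights, paired rows only, a replicate block, other row offsets and each array left out.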

Additional observations from a re-analysis of the deposited data

Results flagged for a closer look

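In 2 of 24 sets of 5 arrays (8 genes in 3 groups), 1 array stood far from the rest of its group by Dixon's ratio of the gap to the range, with a critical value of 0.71. Chance alone gives about 1 in 20 such sets. CF4 had a Lamb2 value of 0.00, against 0.16 in the nearest CF array (ratio 0.842). EpiSC3 had an Agrn value of 0.43, against 0.04 in the nearest EpiSC array (ratio 0.848).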

How the results depend on the processing

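Member differences were compared over 430 alternative values, which leave out the setting with identifiers as deposited. They kept their direction and their side of the threshold in 362, fell below the threshold in 47, passed it newly in 18 and turned sign in 3. The 3 came from dropping the extra offset of 3 rows on chromosome 10, which gave 0.042 for Lama2 in EpiSC against aCF, and for Lama4 0.67 in aCF against CF and 0.31 in EpiSC against CF. In EpiSC against aCF, 148 probe sets passed, and 2135 by BH, 369 in one fit of all arrays, 97 trended and robust, 50 without aCF4 and aCF5, and 73 to 143 with 1 array left out. For aCF against CF they numbered 340, and 4023 by BH, 212 trended and robust, 144 without aCF4 and aCF5, and 197 to 272 with 1 array left out. For EpiSC against CF they numbered 647, and 7157 by BH, 1060 in one fit, and 369 to 557 with 1 array left out. Of the 8 genes, those past the threshold numbered 0 for EpiSC against aCF (7 by BH, 1 in one fit, 0 to 1 with 1 array left out). They numbered 1 for aCF against CF (4 by BH, 2 over paired rows only, 0 after quantile normalization, in one fit, trended and robust, and with identifiers as deposited, 0 to 1 with 1 array left out). They numbered 4 for EpiSC against CF (2 trended and robust, 0 with identifiers as deposited, 1 to 4 with 1 array left out). The fewer samples and, for paired rows, fewer tests are part of these settings, and the cause of the other shifts was not tested. EpiSC and aCF were isolated together, but the labels do not say that a shared number marks a shared heart. Deviations of same-numbered arrays correlated between 0.019 and 0.154 for EpiSC and aCF, -0.00876 and 0.156 for aCF and CF, and -0.022 and 0.04 for EpiSC and CF, not over 0.1 in every pair, so the numbers were not taken as pairs. The same-number value exceeded the highest with another number for 4 of 5 replicates in EpiSC and aCF and for 1 of 5 in each of the other comparisons, a hint from the data and not from the design. With the replicate number as a block, 41, 94 and 166 probe sets passed in EpiSC against aCF, aCF against CF and EpiSC against CF, and 0 of the 8 genes in each. Other background corrections and slide could not be tried on centred values, and every gene of the 8 had 1 paired probe set, so averaging probe sets changed nothing.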

Other observations

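Cdh19, a cadherin of Schwann cells, carried most of the group order of the Schwann marker list. It averaged -2.15 in EpiSC, -0.04 in aCF and 1.10 in CF, with a difference of -3.25 ± 0.45 for EpiSC against CF that passed BH (adjusted p = 0.000435) and missed Bonferroni (adjusted p = 0.577) in limma. The other 3 measured genes of that list, S100b, Erbb3 and Foxd3, had differences between -0.18 and 0.05 in the same comparison and passed neither. The proteoglycan protease gene Adamts4 averaged 0.09 in EpiSC, 0.15 in aCF and -1.37 in CF, and its aCF difference from CF of 1.52 ± 0.25 passed BH (adjusted p = 0.00201) and missed Bonferroni.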
